A study of Mus musculus with 6 samples.

Results

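Slc30a1, the main zinc exporter of the plasma membrane, was described in the immune cells of tumours grown in mouse brain or mammary fat pad, together with the metallothioneins Mt1 and Mt2, the zinc-sensing transcription factor Mtf1 and the zinc importers Slc39a1, Slc39a6 and Slc39a10. These 7 genes were chosen by name, out of 32285 genes counted, because Slc30a1 had stood out between the sites in an earlier look at these libraries. The difference between the sites is therefore what chose them: it is given below as a description, with fold changes and their standard errors. Counts of classes past the threshold of the fit over all genes are printed beside the share of all genes past it, and they test nothing about these 7 genes. All 7 names were found once each in the gene list of every library.

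The study measured single-cell RNA by 10x 3' sequencing in CD45+ cells, which are the white blood cells, sorted as viable from tumours. A breast cancer line that forms brain metastases was injected either into the brain, giving brain tumours (BrM, 3 libraries), or into the mammary fat pad, giving tumours at the site of origin of such cancers (MFP, 3 libraries). All mice were female C57BL/6J aged 10 to 12 weeks, so both groups share the line, the sex, the strain and the age. The labels used here name neither the cell line, nor the time after injection, nor the number of animals behind a library; p-values therefore measure only the spread between these libraries, which may be technical.

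Cells hold nearly all of their zinc bound to protein. Mtf1 binds DNA at metal-response elements when free zinc rises, and it switches on the metallothioneins, small cysteine-rich proteins that bind zinc and copper, and Slc30a1, which moves zinc out of the cell. Metallothionein genes also answer to glucocorticoids, oxidative stress and low oxygen. The Slc39 (ZIP) proteins work the other way and bring zinc into the cytosol: Slc39a1 is a plasma membrane importer found in most cells, and Slc39a6 and Slc39a10 are closely related importers that can pair with each other. In macrophages, metallothioneins and zinc transport are known as part of the handling of metals during inflammation.

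The promoters of Slc30a1, Mt1 and Mt2, which Mtf1 switches on, are shown because the data were asked whether Slc30a1 moves with the metallothioneins. Each sequence is the stretch before the gene on the + strand, from RefSeq, build GRCm38.p6, with matches to the metal-response element core in capitals. The letters searched were TGCACNC and TGCGCNC on both strands, and overlapping matches were counted once.
Slc30a1 (chr1:191906531-191906766): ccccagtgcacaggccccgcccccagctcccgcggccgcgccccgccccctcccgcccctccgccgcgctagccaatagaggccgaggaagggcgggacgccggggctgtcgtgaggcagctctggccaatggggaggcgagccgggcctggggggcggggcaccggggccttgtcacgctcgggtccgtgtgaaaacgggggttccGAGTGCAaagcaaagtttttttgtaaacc
Mt2 (chr8:94172368-94172617): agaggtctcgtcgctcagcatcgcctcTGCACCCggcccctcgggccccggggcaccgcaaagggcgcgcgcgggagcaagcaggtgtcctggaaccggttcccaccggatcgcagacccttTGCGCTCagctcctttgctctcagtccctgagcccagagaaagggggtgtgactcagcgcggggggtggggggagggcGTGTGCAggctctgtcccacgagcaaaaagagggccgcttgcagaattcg
Mt1 (chr8:94178839-94179081): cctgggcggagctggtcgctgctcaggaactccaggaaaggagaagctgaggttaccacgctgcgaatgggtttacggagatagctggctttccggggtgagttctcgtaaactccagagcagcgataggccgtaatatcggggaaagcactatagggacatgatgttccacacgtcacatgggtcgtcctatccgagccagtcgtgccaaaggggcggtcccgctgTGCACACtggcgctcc
The Slc30a1 stretch holds 1 match, on the - strand, 43 to 37 bases before the RefSeq start. The Mt1 stretch holds 1 match, 23 to 17 bases before the start, and the Mt2 stretch holds 3, of which the one nearest to the start lies 50 to 44 bases before it on the - strand. The stretches of Slc30a1 and Mt1 end where the annotated gene begins and so are a little shorter than the windows searched, which were the 250 bases before each RefSeq start. Of all such windows, 21.4% (7032 of 32851) held at least 1 match and 0.770% (253) held at least 3. The windows of Mtf1, Slc39a1 and Slc39a10 held 0 matches, which says only that these letters are not in those stretches. A match is a description of the letters and not a measured binding site.

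In GRCm38, Slc30a1 (ENSMUSG00000037434) spans chr1:191906767-191913247 on the + strand. Mt2 (ENSMUSG00000031762) at chr8:94172664-94173568 and Mt1 (ENSMUSG00000031765) at chr8:94179082-94180327 lie beside each other on the + strand. Mtf1 (ENSMUSG00000028890) lies at chr4:124802104-124849800 and Slc39a1 (ENSMUSG00000052310) at chr3:90248172-90253612, both on the + strand. Slc39a6 (ENSMUSG00000024270) lies at chr18:24579881-24603817 and Slc39a10 (ENSMUSG00000025986) at chr1:46807544-46892852, both on the - strand. All 7 are protein-coding genes, and 3' reads count a transcript near its end.

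The 6 libraries held 49518 cell barcodes, 7083 to 8986 per library, with 50692794 to 70944735 unique molecular identifiers (UMIs) each; 43608 cells were left after filters and 43435 of them fell into a class. Classes are groups of clusters named from marker genes and carry the suffix -like; T-cell clusters that carried Fcer1g at a high level (clusters 3 and 6) or were led by interferon genes (cluster 7) kept their numbers. Libraries of a pair shared 10 to 39 barcodes. The libraries fell into kinds that cross the sites: BrM 1, MFP 1 and MFP 2 had the lower UMI totals and were rich in lymphoid cells (72.6% to 79.8% of cells in 6 lymphoid classes), while BrM 2, BrM 3 and MFP 3 had the higher totals and were rich in macrophage-like, monocyte-like and cDC2-like cells (35.8% to 48.1% of cells, against 0.912% to 2.85% in the other kind). Macrophage-like cells numbered 44, 1936 and 1770 in BrM 1, BrM 2 and BrM 3 and 66, 27 and 2272 in MFP 1, MFP 2 and MFP 3, so the values of this class in BrM 1, MFP 1 and MFP 2 rest on few cells. Levels are given as CPM, the gene's UMIs scaled by the total of UMIs of the class in that library to the same total for every sum, for sums of at least 20 cells, and values are listed in the order of libraries 1, 2 and 3.

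Slc30a1 was found in every class in at least 1 library, and its level was highest in monocyte-like cells. In monocyte-like cells it stood at 82.2, 67.9 and 81.4 CPM in BrM and at 54.5, 61.2 and 68.5 CPM in MFP. Monocyte-like cells held the highest level of any class in all 6 libraries. Their mean of 69.3 ± 10.9 CPM (SD, n = 6) was 39.7 CPM above that of NK-like cells, the next class, a gap larger than either SD, while each of the 15 other gaps between neighbours in the order of classes was within the larger SD.

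In NK-like cells, the natural killer lymphocytes, Slc30a1 was at 39.2, 38.5 and 40.9 CPM in BrM and at 20.9, 17.6 and 20.02 CPM in MFP. All 3 BrM values were nearly the same and lay above all 3 MFP values. The mean was 39.6 ± 1.23 CPM over the BrM libraries and 19.5 ± 1.71 CPM over the MFP libraries (SD, n = 3 each). In CD8 T-like cells the exporter was at 30.6, 31.9 and 30.7 CPM in BrM and at 12.2, 9.68 and 16.2 CPM in MFP. In CD4 conventional T-like cells it was at 21.1, 19.8 and 29.0 CPM in BrM and at 14.7, 11.3 and 13.9 CPM in MFP. The sites did not overlap in either T-cell class.

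The numbered T-cell clusters were ordered the same way. Slc30a1 was at 28.1, 44.3 and 31.4 CPM in BrM and at 13.4, 12.3 and 14.9 CPM in MFP in cluster 3, and at 21.1, 31.6 and 37.8 CPM in BrM and at 11.7, 10.5 and 13.7 CPM in MFP in cluster 6. In cluster 7 it was at 21.5, 27.8 and 29.0 CPM in BrM and at 10.97, 10.4 and 12.3 CPM in MFP. In each of these clusters every BrM library was above every MFP library. Gamma-delta T-like cells, measured in 2 MFP libraries, had 19.7, 18.8 and 26.4 CPM in BrM and 13.1 and 6.17 CPM in MFP, again without overlap. In cDC2-like cells, conventional dendritic cells that present antigen to CD4 T cells, the values were 13.4, 17.4 and 34.8 CPM in BrM and 13.4 and 7.86 CPM in MFP, so the lowest BrM and the highest MFP library were equal to 3 digits.

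In 4 classes the sites overlapped. Regulatory T-like (Treg-like) cells had 15.3, 25.8 and 20.3 CPM of Slc30a1 in BrM and 6.39, 9.35 and 18.2 CPM in MFP. B-like cells had 11.9, 22.2 and 27.6 CPM in BrM and 3.92, 14.3 and 13.9 CPM in MFP. Macrophage-like cells had 12.8, 26.3 and 32.3 CPM in BrM and 10.1, 0 and 19.0 CPM in MFP. The 0 was 0 of 122513 UMIs in the 27 cells of MFP 2, which allows up to 24.5 CPM, counting error only; the values of BrM 1 and MFP 1 rested on 4 UMIs each, and those of BrM 2, BrM 3 and MFP 3 on 601, 614 and 620. Monocyte-like cells overlapped between BrM 2 and MFP 3. Among the classes with too few libraries for a comparison, Slc30a1 was at 26.9, 19.4 and 27.6 CPM in BrM and 11.4 CPM in MFP 3 in cDC1-like cells. Mature dendritic cells had 17.6 and 16.4 CPM in BrM 2 and BrM 3 and 8.19 CPM in MFP 3. Plasmacytoid dendritic cells had 16.9 and 22.8 CPM in BrM 2 and BrM 3 and 6.47 CPM in MFP 3. Microglia-like cells, found in BrM 2 and BrM 3 only at this number of cells, had 29.0 and 22.8 CPM, and neutrophil-like cells had 7.59 and 3.54 CPM in BrM 2 and BrM 3 and 6.42 CPM in MFP 3.

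**Figure D1:**
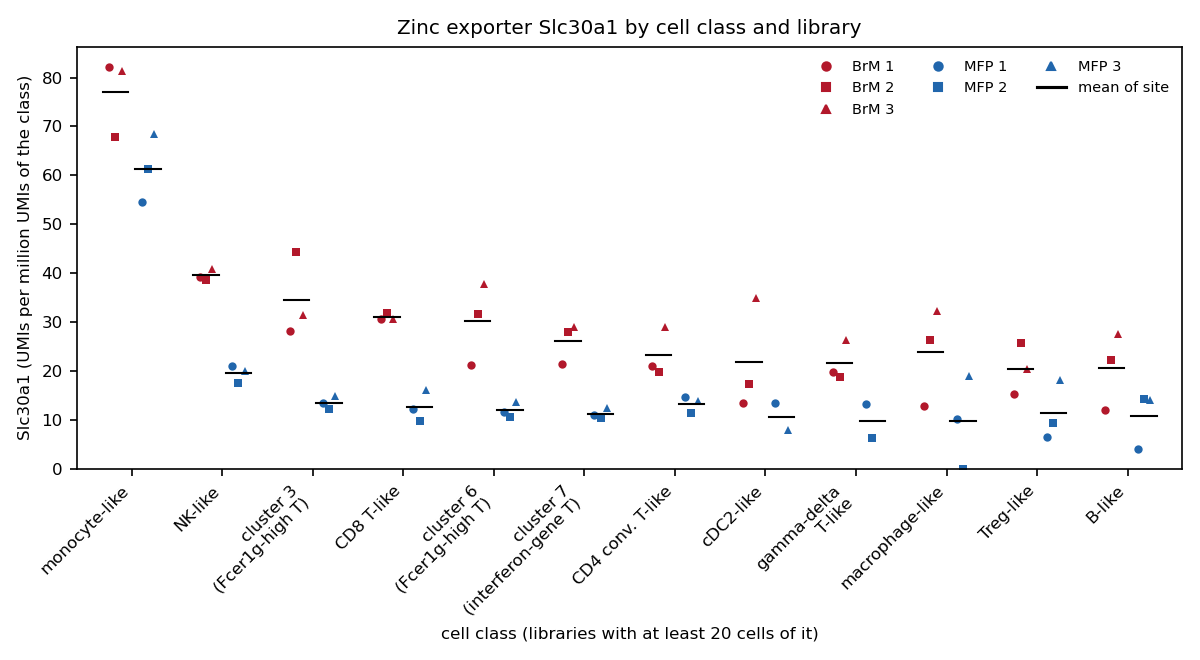
Slc30a1 level (CPM) in each library, in the 12 classes compared, with BrM libraries (red) left of MFP libraries (blue), the marker shape giving the library and the bar the mean of each site. Monocyte-like cells stand highest, and NK-like cells lie near 39.6 CPM in BrM and near 19.5 CPM in MFP.

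In an edgeR quasi-likelihood fit of all genes per class, the log2 fold change of Slc30a1 (BrM over MFP) was positive in 11 of 11 classes where the gene passed the filter on low counts; B-like cells were the class in which it did not. The median was 1.14 and the range 0.35 to 1.41. The fold change was 1.06 (SE 0.12) in NK-like cells, 1.37 (SE 0.18) in CD8 T-like cells, 0.93 (SE 0.20) in CD4 conventional T-like cells and 1.41 (SE 0.20) in cluster 6. It was smallest in monocytes and macrophages, at 0.35 (SE 0.17) in monocyte-like and 0.78 (SE 0.22) in macrophage-like cells. Over all genes tested the median log2 fold change of a class lay between -0.04 and 0.02.

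At an adjusted p under 0.05 Slc30a1 was past the threshold in 2 of the 11 classes, NK-like cells, where 0.00935% of all genes were, and cluster 6, where 0.115% were. Since this difference chose the gene, the count is a description and no test. Every BrM library was above every MFP library in 8 of 12 classes for Slc30a1. The share of genes of at least 10 CPM that were ordered this way was 9.28% in NK-like cells, 3.52% in CD8 T-like cells, 9.57% in CD4 conventional T-like cells, 7.47% in cluster 3, 8.67% in cluster 6, 7.33% in cluster 7, 15.7% in gamma-delta T-like cells and 11.3% in cDC2-like cells. In the classes where Slc30a1 overlapped it was 11.7% in Treg-like, 7.04% in B-like, 5.84% in macrophage-like and 6.07% in monocyte-like cells. Of 6459 genes with at least 5 CPM on average in every class, 49 (0.759%) had this order in at least 8 classes. These genes and classes share libraries, and since the order between sites chose the gene, nothing is read from its place. The calls rest on few libraries: without MFP 1, MFP 2, BrM 2 or BrM 3 neither class passed, with fold changes of 1.00 to 1.13 in NK-like cells and 1.22 to 1.40 in cluster 6, and without MFP 3 the NK-like call was lost. The NK-like call was also lost with the marker gate, with at most 5% mitochondrial counts and without doublet removal, and the cluster 6 call with the replicate block. In the lymphoid-rich libraries alone, with 1 BrM library, the cluster 6 fold change was 0.94 (SE 0.31). By DESeq2 Slc30a1 was called in 2 of the 8 classes with an adjusted value, NK-like cells among them, beside 0.724% of pairs over all genes. DESeq2 gave cluster 6 no adjusted value.

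Because the library kinds cross the sites, the order was also read within each kind. Among the lymphoid-rich libraries Slc30a1 in BrM 1 was above each MFP library measured in 11 of 12 classes, B-like cells being the exception. In cDC2-like cells MFP 2 had under 20 cells, and BrM 1 and MFP 1 were equal to 3 digits at 13.4 CPM. In macrophage-like cells BrM 1 and MFP 1 held 4 UMIs each and MFP 2 held 0. Among the myeloid-rich libraries BrM 2 and BrM 3 were both above MFP 3 in 10 of 11 classes, monocyte-like cells being the exception. Each kind holds a single library of 1 site. The share of all genes ordered so within a single kind was not computed, so nothing is read from these counts. In 9 of 11 classes, cDC2-like and macrophage-like cells among them, the order held within both kinds. It did so in at least 9 classes for 31 of the 6459 genes (0.48%). Over 15 other ways of fitting, all 160 fold changes of Slc30a1 that could be fitted were positive, from 0.24 to 2.06. These fits reuse the same libraries, and the difference between the sites chose the gene, so they test nothing. The summed level of 8 macrophage markers in NK-like cells, which can be carried by free RNA, was 25.6, 656 and 643 CPM in BrM and 14.9, 13.6 and 409 CPM in MFP. It was high in the myeloid-rich libraries of both sites. Scaled by the complement C1q transcripts found in lymphoid cells, macrophage RNA would carry at most 0.609 CPM of Slc30a1 into 6 lymphoid classes; the part of free RNA in the difference between the sites was not tested further.

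The order of Slc30a1 was also read inside single clusters, since the libraries gave different numbers of cells to each. Values are given for the largest clusters of 4 classes and for the clusters in which the sites overlapped; the share of all genes ordered the same way was not computed for single clusters. In cluster 0, the largest NK-like cluster, it was at 41.1, 38.9 and 41.9 CPM in BrM and at 24.5, 20.1 and 19.0 CPM in MFP. In cluster 2, the next largest, it was at 44.3, 39.4 and 36.7 CPM in BrM and at 20.5, 14.5 and 18.8 CPM in MFP. Each BrM library was above each MFP library in both. The difference between the sites chose the gene, so nothing is read from this order. In the CD8 T-like cluster 5 it was at 33.1, 29.0 and 33.0 CPM in BrM and at 12.4, 9.38 and 15.5 CPM in MFP, and in the CD4 T-like cluster 4 the sites overlapped at 20.4, 23.6 and 39.6 CPM in BrM and 20.5, 15.7 and 20.1 CPM in MFP. In the macrophage-like cluster 1 it was at 27.0 and 32.1 CPM in BrM 2 and BrM 3 and at 14.8 and 14.6 CPM in MFP 1 and MFP 3. The sites also overlapped in the NK-like cluster 15, at 28.4 and 67.6 CPM in BrM 1 and BrM 3 and 17.3, 16.4 and 48.0 CPM in MFP, and in the macrophage-like cluster 14, at 6.03, 29.4 and 28.5 CPM in BrM and 5.17, 0 and 15.7 CPM in MFP. Cluster 24, a macrophage-like cluster led by Retnla, a gene of alternatively activated macrophages, had 548 cells in MFP 3 and under 20 in any other library; it held 34.2 CPM in MFP 3, above the other macrophage-like clusters of that library.

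Mt1, one of the widely expressed metallothioneins, marked macrophage-like cells. It stood there at 771, 566 and 459 CPM in BrM and at 425, 841 and 849 CPM in MFP. The sites overlapped, with a mean of 599 ± 159 CPM over the BrM libraries and 705 ± 242 CPM over the MFP libraries (SD, n = 3 each). Microglia-like cells were close, at 533 and 497 CPM in BrM 2 and BrM 3. Dendritic cells came next: cDC2-like cells had 157, 424 and 318 CPM of Mt1 in BrM and 94.0 and 404 CPM in MFP 1 and MFP 3, and mature dendritic cells had 223 and 252 CPM in BrM 2 and BrM 3 and 332 CPM in MFP 3. Among lymphocytes, Treg-like cells stood highest, at 265, 216 and 300 CPM in BrM and at 221, 65.5 and 162 CPM in MFP.

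Within the macrophage-like class Mt1 was unequal. Cluster 14, led by Mmp12, an elastase of tissue macrophages, and by C1q genes, held 1164, 1057 and 872 CPM in BrM and 626, 907 and 1183 CPM in MFP. Cluster 1 held 617 and 499 CPM in BrM 2 and BrM 3 and 231 and 735 CPM in MFP 1 and MFP 3. Cluster 17 was lowest, at 281 and 219 CPM in BrM 2 and BrM 3 and 510 CPM in MFP 3. The class was made up differently at the sites, since cluster 17 gave 494 and 516 cells in BrM 2 and BrM 3 and 37 in MFP 3, and cluster 14 gave 225 and 220 cells in BrM 2 and BrM 3 and 632 in MFP 3.

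In lymphocytes Mt1 was lower and varied with the library. NK-like cells had 15.1, 74.9 and 48.0 CPM in BrM and 4.99, 4.38 and 39.6 CPM in MFP. CD8 T-like cells had 18.9, 160 and 67.1 CPM in BrM and 43.5, 30.1 and 26.8 CPM in MFP. CD4 conventional T-like cells had 25.3, 53.2 and 62.6 CPM in BrM and 18.7, 11.01 and 36.8 CPM in MFP. The sites overlapped in each. The myeloid-rich libraries BrM 2, BrM 3 and MFP 3 were the highest in NK-like and CD4 conventional T-like cells, and BrM 2 and BrM 3 in CD8 T-like cells. Within the CD8 T-like class Mt1 was highest in cluster 18, marked by the chemokine Xcl1 and the checkpoint receptor Pdcd1, at 232 and 164 CPM in BrM 2 and BrM 3 and 87.0, 72.1 and 38.9 CPM in MFP. That cluster gave 17, 394 and 95 cells in BrM and 224, 275 and 37 in MFP.

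The log2 fold change of Mt1 was positive in 10 of 11 classes, with a median of 1.33, and it was -0.22 (SE 0.33) in macrophage-like cells, the exception. It was 2.07 (SE 0.83) in NK-like cells and 1.33 (SE 0.43) in CD4 conventional T-like cells, with larger standard errors than those of Slc30a1 in both. Mt1 was called in 0 of 11 classes by edgeR, with 7 under 0.05 before adjustment, and in 2 classes by DESeq2. Over all genes and classes 11.7% of pairs were under 0.05 before adjustment, with 4.397% in CD8 T-like and 18.9% in Treg-like cells as the lowest and highest class, and DESeq2 called 0.724% of pairs, most in Treg-like (2.42%) and CD4 conventional T-like cells (2.39%). edgeR called 0.0% of all genes in CD4 conventional T-like, CD8 T-like, B-like and cDC2-like cells and clusters 3 and 7, 0.0896% in Treg-like, 0.32% in gamma-delta T-like, 0.433% in monocyte-like and 3.75% in macrophage-like cells. The sites overlapped in 11 of 12 classes; in gamma-delta T-like cells, the other class, all of BrM (8.89, 25.1 and 39.6 CPM) was above MFP (2.62 and 7.19 CPM). Within both library kinds the BrM libraries were above the MFP libraries in 6 of 11 classes. The share of all genes ordered so in as many classes was not computed, so nothing is read from this count. Scaled by C1q as above, macrophage RNA would carry 0.124 to 4.43 CPM of Mt1 into the lymphoid classes of the lymphoid-rich libraries and 5.68 to 15.2 CPM in the myeloid-rich ones; in B-like cells of MFP 3 the measured level was 13.9 CPM, and the part of free RNA in the lymphoid levels was not tested further.

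**Figure D2:**
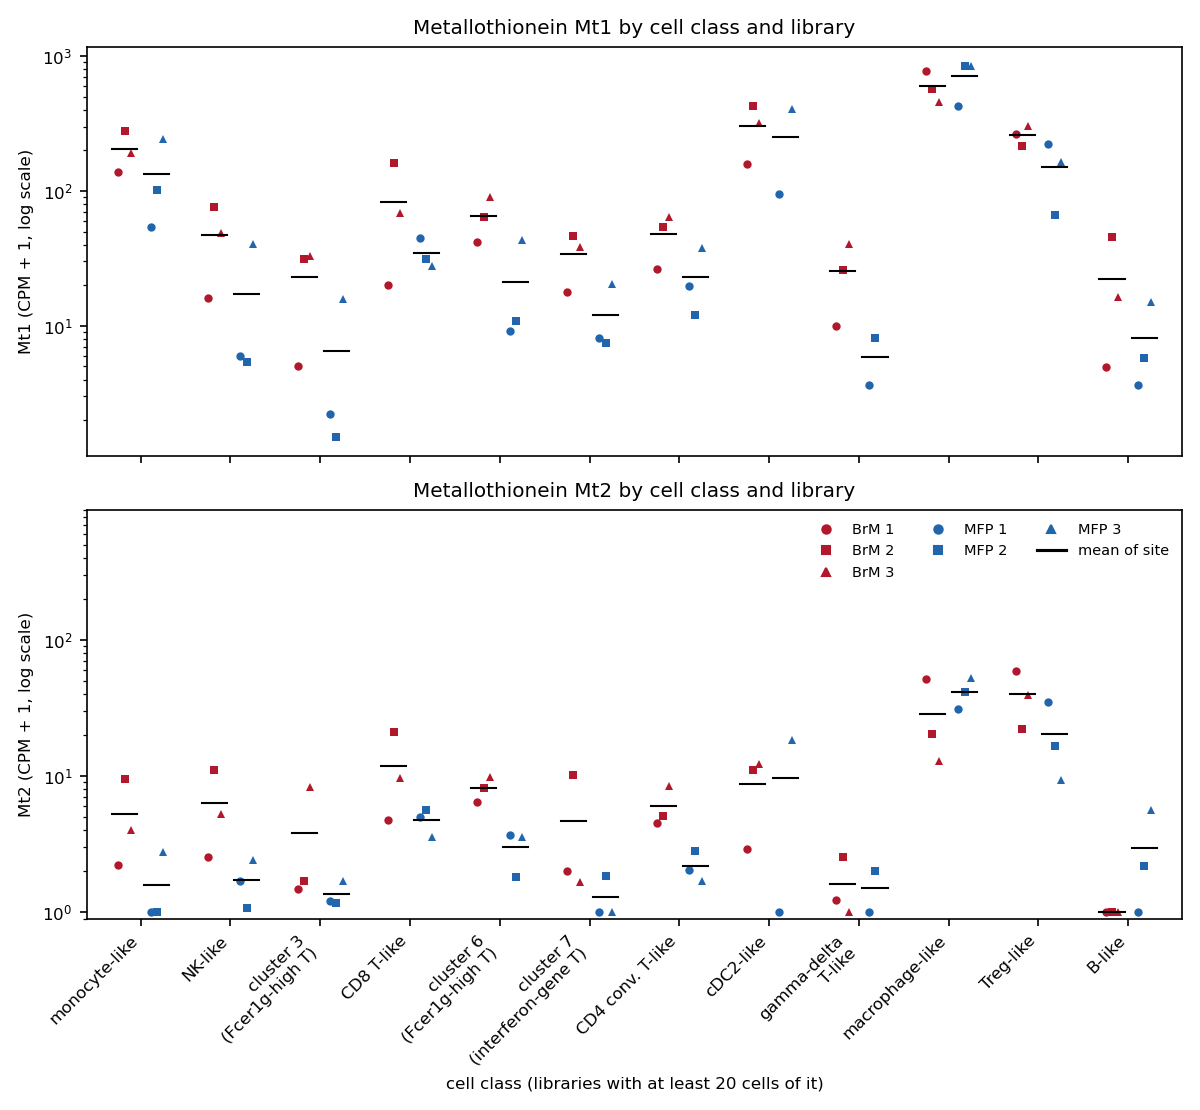
Mt1 and Mt2 levels (CPM + 1, log axis) in each library in the 12 classes compared, with BrM libraries (red) left of MFP libraries (blue) and bars for the mean of each site. Macrophage-like cells stand high for both genes, and the spread between libraries of 1 site in lymphoid classes is wide.

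Mt2, which encodes the other widely expressed metallothionein, had a negative fold change in macrophage-like cells and was ordered the other way in several lymphoid classes. In macrophage-like cells it was at 51.0, 19.5 and 11.8 CPM in BrM and at 30.2, 40.8 and 51.4 CPM in MFP. BrM 1, with 16 UMIs, was among the highest, and MFP 1 and MFP 2 rested on 12 and 5 UMIs, whereas BrM 2, BrM 3 and MFP 3 had 446, 225 and 1674. The log2 fold change was -1.39 (SE 0.27), and edgeR called it lower in BrM, as it called 3.75% of all genes of this class in either direction. The call was lost without BrM 2 (-1.10), without BrM 3 (-0.62) and without MFP 3 (-1.03). It was also lost with the marker gate (-1.07), with the replicate block (-1.10), without a filter on low counts (-1.38) and by DESeq2 (-0.81). Among the lymphoid-rich libraries alone the fold change was 0.48. By cluster, Mt2 was at 96.5, 93.6 and 47.2 CPM in BrM and 41.4, 44.9 and 108 CPM in MFP in cluster 14. It was at 3.98 and 3.01 CPM in BrM 2 and BrM 3 and 11.1 CPM in MFP 3 in cluster 17, and at 76.4 CPM in MFP 3 in cluster 24.

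In 3 lymphoid classes Mt2 was higher in every BrM library. CD4 conventional T-like cells had 3.51, 4.13 and 7.46 CPM in BrM and 1.05, 1.81 and 0.695 CPM in MFP. NK-like cells had 1.53, 10.2 and 4.23 CPM in BrM and 0.714, 0.0769 and 1.43 CPM in MFP. Cluster 6 had 5.48, 7.16 and 8.81 CPM in BrM and 2.71, 0.827 and 2.60 CPM in MFP. Counts were few: NK-like cells of MFP 2 and MFP 3 held 1 and 3 UMIs, CD4 conventional T-like cells of MFP 3 held 1 and cluster 6 of MFP 2 held 3, so these values lie at or below the level of 3 counts, and BrM 1 and MFP 3 were close in NK-like cells. Among genes of at least 10 CPM, a level that Mt2 did not reach there, 9.57%, 9.28% and 8.67% were ordered this way in the 3 classes. The fold changes of Mt2 were 1.96 (SE 0.48), 3.11 (SE 0.91) and 1.79 (SE 0.39). Treg-like cells had the highest lymphoid level, 58.6, 21.1 and 38.2 CPM in BrM and 34.1, 15.6 and 8.40 CPM in MFP, and overlapped. Mt2 passed the filter in 7 classes; 5 fold changes were positive, and macrophage-like cells gave the 1 call.

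Mtf1, the zinc sensor itself, overlapped between the sites in every class compared. In NK-like cells it was at 18.2, 19.3 and 14.6 CPM in BrM and at 17.1, 14.1 and 20.5 CPM in MFP. The overlap held in 12 of 12 classes, and the fold change lay between -0.24 and 0.24 with a median of -0.04. It was called in 0 of 12 classes by edgeR, with 0 under 0.05 before adjustment, and in 0 by DESeq2. Mature dendritic cells stood apart, at 51.3 and 58.6 CPM in BrM 2 and BrM 3 and 45.03 CPM in MFP 3. Their mean of 51.6 ± 6.77 CPM (SD, n = 3) was 32.5 CPM above the next class, more than the SD.

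Slc39a1, the widespread importer, was highest in monocyte-like cells, at 64.7, 52.2 and 41.8 CPM in BrM and at 74.8, 73.5 and 60.2 CPM in MFP. In macrophage-like cells it was at 22.3, 34.0 and 29.2 CPM in BrM and at 27.7, 49.0 and 53.3 CPM in MFP. Both overlapped between the sites. The fold change was negative in 10 of 11 classes, with a median of -0.26 and a range of -0.55, in macrophage-like cells, to 0.22; 0 were called by edgeR, 1 fell under 0.05 before adjustment, and by DESeq2 0 were called. Only in cluster 6, where 13.2% of genes were ordered so, was every BrM library (13.3, 10.1 and 13.95 CPM) below every MFP library (14.9, 14.6 and 15.8 CPM). The share of genes with every BrM library below was 7.39% in B-like, 18.8% in CD4 conventional T-like, 7.21% in CD8 T-like, 12.3% in NK-like, 14.6% in Treg-like, 14.2% in cDC2-like, 13.5% in gamma-delta T-like, 4.29% in macrophage-like and 12.1% in monocyte-like cells, 11.7% in cluster 3 and 8.48% in cluster 7. Within the myeloid-rich libraries Slc39a1 in BrM was below MFP in 11 of 11 classes, which rests on the single library MFP 3 and held for 309 of 6459 genes (4.78%); within the lymphoid-rich ones it was below in 4 classes and above in 5.

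Slc39a6, an importer also known as LIV-1, was highest on average in cDC2-like cells, at 34.5, 31.8 and 37.7 CPM in BrM and at 29.1 and 27.9 CPM in MFP 1 and MFP 3. The cDC2-like mean was 2.12 CPM above that of gamma-delta T-like cells, the next class, within the larger SD of 3.98 CPM. Highest were cDC2-like cells in all BrM libraries, gamma-delta T-like cells in MFP 1 and Treg-like cells in MFP 2 and MFP 3. All BrM libraries were above MFP in cDC2-like cells. In cluster 3 Slc39a6 was at 22.4, 23.2 and 22.9 CPM in BrM and at 16.9, 19.4 and 14.2 CPM in MFP, also without overlap. This order was found for 11.3% of genes in cDC2-like cells and 7.47% in cluster 3. The fold change was positive in 8 of 12 classes, from -0.27 to 0.41 with a median of 0.16; 0 were called by edgeR, 2 fell under 0.05 before adjustment, and by DESeq2 0 were called.

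Slc39a10, its close relative, was at 20.9, 12.8 and 12.7 CPM in BrM and at 12.2, 10.7 and 11.4 CPM in MFP in NK-like cells. In CD8 T-like cells it was at 17.3, 12.6 and 13.5 CPM in BrM and at 12.2, 8.97 and 12.5 CPM in MFP. In cluster 3 it was at 20.5, 19.7 and 17.2 CPM in BrM and at 10.9, 8.12 and 3.55 CPM in MFP. In these 3 classes all BrM libraries were above all MFP libraries, by a narrow margin in NK-like and CD8 T-like cells, an order that 9.28%, 3.52% and 7.47% of genes had there, with fold changes of 0.58 (SE 0.19), 0.42 (SE 0.22) and 1.21 (SE 0.26). The fold change was positive in 6 of 10 classes, from -0.72 in monocyte-like cells to 1.21, with a median of 0.25; 0 were called by edgeR, 2 fell under 0.05 before adjustment, and by DESeq2 0 were called.

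**Figure D3:**
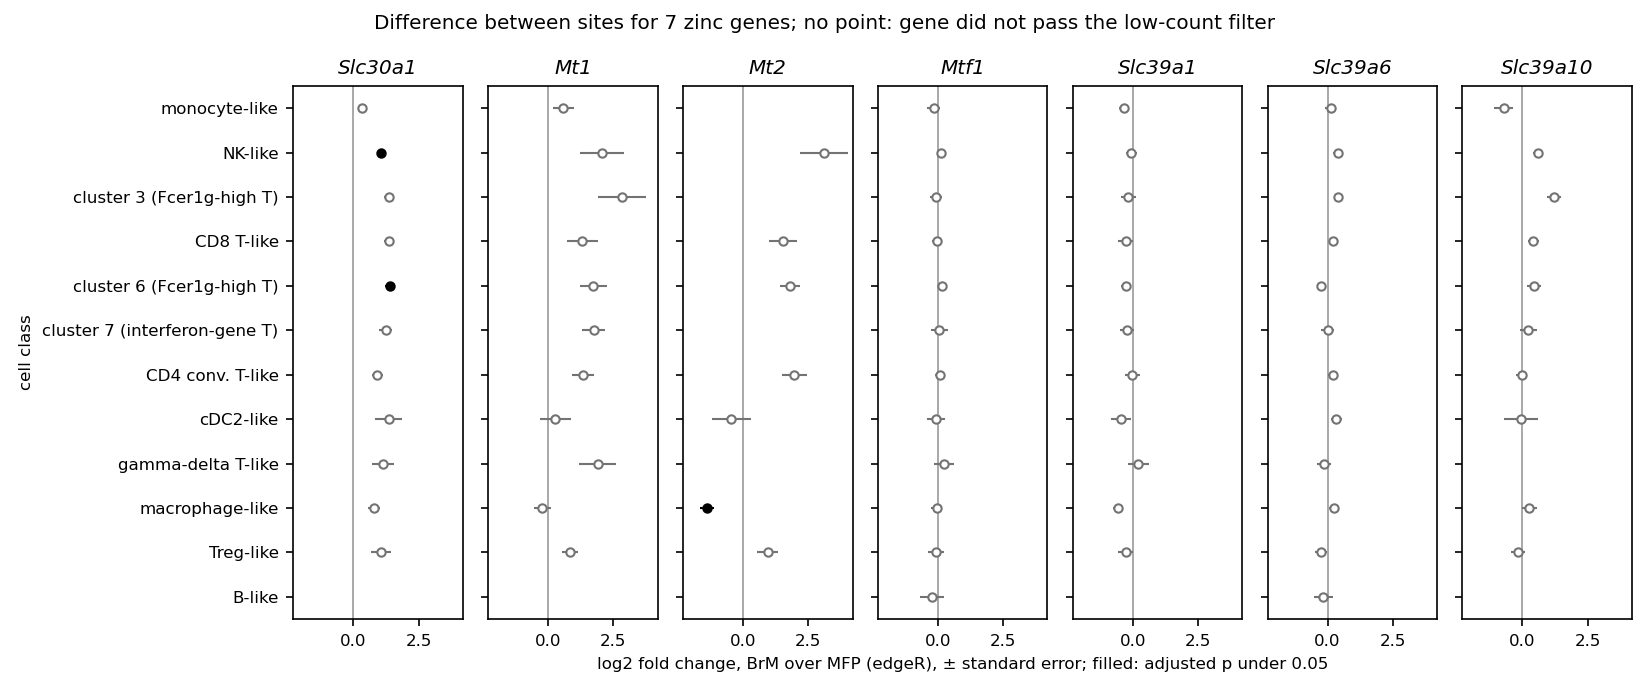
Log2 fold change of each gene (BrM over MFP, edgeR) with its standard error, by class of cells; the vertical line marks 0 and filled points an adjusted p under 0.05, shown for description only. Slc30a1 lies right of 0 in 11 of 11 classes, Mtf1 lies around 0, and Mt2 lies left of 0 in macrophage-like cells at -1.39.

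The other genes of zinc transport gave the background for these values. Of the other transporters of the SLC30 and SLC39 families, Mt3 and Mt4, 14 genes passed the filter in at least 1 class, giving 116 pairs of gene and class. edgeR called 0 of the 116 at an adjusted p under 0.05, with 6 (5.17%) under 0.05 before adjustment, beside 11.7% over all genes; of the 70 that DESeq2 adjusted, 0 were called. The median fold change per gene over its classes lay between -0.39 for Slc30a4, which loads zinc into vesicles, and 0.51 for Slc39a8, an importer of zinc and manganese measured in 4 classes. The 1 value outside that range was 1.23 for Slc30a3, the transporter of synaptic vesicles in neurons, measured in 1 class.

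Other genes reported as Mtf1 targets were set beside Slc30a1 to ask whether it moved with them. They gave 62 pairs of gene and class, of which edgeR called 0, with 9 (14.5%) under 0.05 before adjustment, beside 11.7% over all genes; by DESeq2 1 was called, beside 0.724% over all genes. That 1 was Selenoh, a selenoprotein of the nucleus, in CD4 conventional T-like cells. Selenoh was positive in 10 of 12 classes, with a median of 0.25 and a highest value of 0.92 in CD4 conventional T-like cells. Selenow, a small redox selenoprotein, was positive in 3 of 12 classes (median -0.12) and Gclc, the catalytic subunit of glutathione synthesis, in 4 of 12 (median -0.13). Csrp1, a LIM-domain protein and the only one of the 5 with a promoter window that held a match, was positive in 7 of 12 (median 0.03), and Ndrg1, a hypoxia-induced gene, in 4 of 11 (median -0.05). Slc40a1, the iron exporter ferroportin, passed the filter in macrophage-like cells alone, at 1.00, and was called there at 2.20 when cells were taken with the marker gate. Pgf, a growth factor of vessels, was positive in 0 of 2 classes (median -0.53). The median over these genes lay between -0.23 and 0.15 in the classes.

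Whether Slc30a1 varied together with the metallothioneins was described over 79 sums of library and class, in 18 classes, as deviations of log2(CPM + 5) from the mean of the class. The points share libraries, depth and site, so the correlations carry no p. Pearson's r of Slc30a1 was 0.61 with Mt1 and 0.29 with Mt2. With Mt1 it was 0.45 with deviations from the mean of class and library kind and 0.35 from the mean of class and site. From the mean of class, site and kind it was -0.12 (54 points). With Mt2 the same values were 0.25, 0.04 and -0.10. Mt1 and Mt2 had an r of 0.62, 0.62, 0.54 and 0.47 through the same steps. At the last step the lymphoid-rich BrM library and the myeloid-rich MFP library, each alone in its site and kind, dropped out. The libraries left formed a pair within each site. The deviations of a pair mirror each other, so the 54 points are not separate values. The last value of each series therefore cannot be compared with the earlier ones. The C1q transcripts of macrophages moved with Mt1 at r 0.80 and with Slc30a1 at 0.58 as deviations from the class mean, and at 0.27 and 0.36 once the library kind was taken out.

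**Figure D4:**
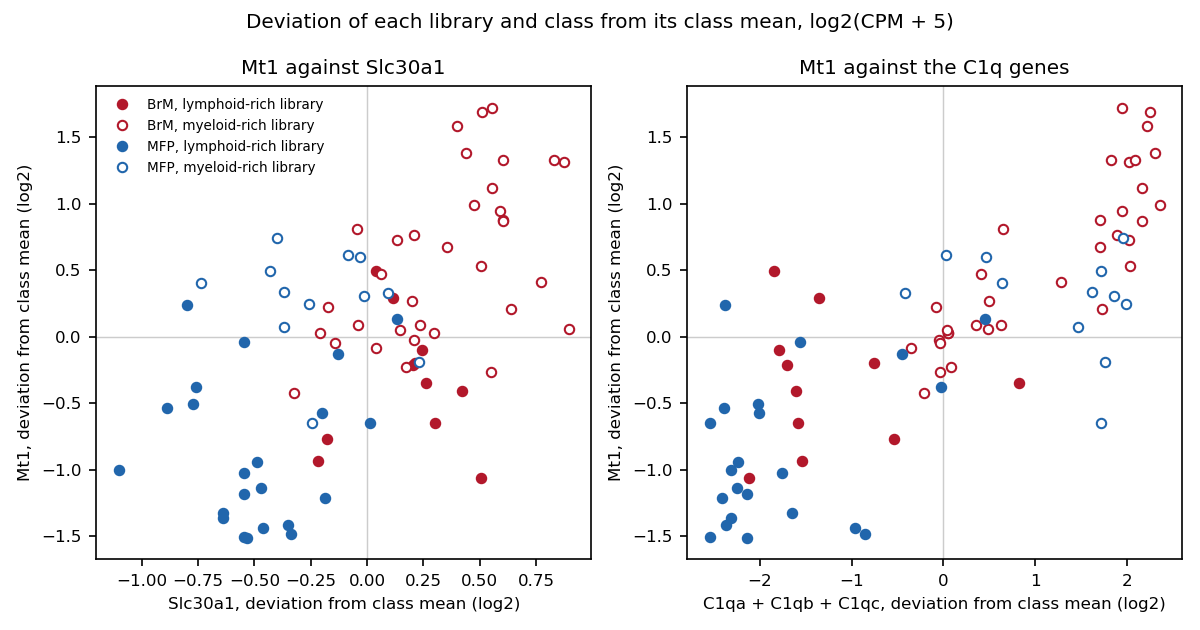
Deviation of Mt1 from the class mean (log2(CPM + 5)) against that of Slc30a1 (left) and of the C1q genes (right), 1 point per library and class, 79 points, BrM in red and MFP in blue, lymphoid-rich libraries filled and myeloid-rich ones open. Against Slc30a1 most BrM points lie right of most MFP points (r 0.61), and against C1q the library kinds lie apart (r 0.80).

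Among 5472 genes with at least 20 CPM on average, those whose deviations were most like Slc30a1 included Ube2b (r 0.78), Kin (0.74), Slc25a3 (0.74) and Srsf6 (0.73). Mt1 stood at rank 84 and Mt2 at rank 1234. Deviations from the class mean hold the difference between the sites, which chose Slc30a1. Ranks by deviations that involve Slc30a1 are therefore a description and no test. From the mean of class and site its r was 0.35 with Mt1 and 0.04 with Mt2. Over the 18 class means, which ask in which cell types the gene is high, Nufip1 (0.78), Ap1g1 (0.76), Eif4a1 (0.74), Tm9sf4 (0.72) and Larp1 (0.72) were most like Slc30a1, with Mt1 at rank 1672 (r 0.24) and Mt2 at rank 3003 (r 0.05). The genes most like Mt1 in their deviations were macrophage genes, namely C1qc (0.81), Aif1 (0.81), C1qb (0.80), Lgmn (0.79) and C1qa (0.79), with Mt2 at rank 128 and Slc30a1 at rank 157. Over class means Mt2 stood at rank 16 (r 0.85) and Slc39a1 at rank 42 (r 0.82) in likeness to Mt1.

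Whether the same cells carried both transcripts was asked within libraries, a comparison apart from the sites. Each cell was thinned to 2000 UMIs, and the metallothionein UMIs in cells with a Slc30a1 UMI were set against the number expected from the cells without one. No class had 20 such cells in all 6 libraries, so no class was tested. In macrophage-like cells 414 Mt1 UMIs were observed and 337 expected in the 3 libraries with enough cells (mean log2 ratio 0.30 ± 0.03, SD, n = 3), and for Mt2 9 were observed and 15.4 expected (-0.67 ± 0.18). In NK-like cells 21 Mt1 UMIs were observed and 13.8 expected (5 libraries), in CD8 T-like cells 34 and 24.4 (3 libraries), in monocyte-like cells 77 and 69.4 (3 libraries), in CD4 conventional T-like cells 14 and 6.59 (4 libraries, mean log2 ratio 0.02), and in cluster 3 1 and 4.35 (4 libraries). At 1000 and 4000 UMIs per cell the macrophage-like Mt1 ratio was -0.13 and 0.02.

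To give each library 1 value, all immune clusters were then pooled, with the expected UMIs added up within clusters, a step added after the class counts had been seen. Between 196 and 503 cells per library held a Slc30a1 UMI. In BrM 25, 264 and 243 Mt1 UMIs were observed and 19.8, 208 and 189 expected. In MFP 14, 5 and 187 were observed and 5.09, 3.72 and 167 expected. Mt1 was above expectation in 6 of 6 libraries, with a mean log2 ratio of 0.49 ± 0.44 (SD, n = 6); without MFP 1, which rests on 14 UMIs, the mean was 0.32. The exact two-sided sign-flip permutation p was 0.03125, the smallest that 6 libraries can give, and 0.0625 after adjustment over the 2 metallothioneins, so it missed the threshold. It was 0.469 with cells thinned to 1000 UMIs (log2 ratio 0.20) and 0.0625 at 4000 UMIs (0.40, above expectation in 5 of 6 libraries). For Mt2 37 UMIs were observed and 30.1 expected, above expectation in 4 of 6 libraries (exact permutation p = 0.125). The C1q transcripts, counted the same way, gave 9210 observed and 9668 expected and were above expectation in 1 of 6 libraries. The importer Slc39a6 gave 123 observed and 96.4 expected, above expectation in 5 of 6 libraries (mean log2 ratio 0.30 ± 0.33), a size like that of Mt1. Slc39a1 gave 90 and 94.5, Slc39a10 gave 53 and 54.6 and Mtf1 gave 68 and 63.4. These genes were not tested, and the excess of Mt1 was not shown to differ from theirs.

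**Figure D5:**
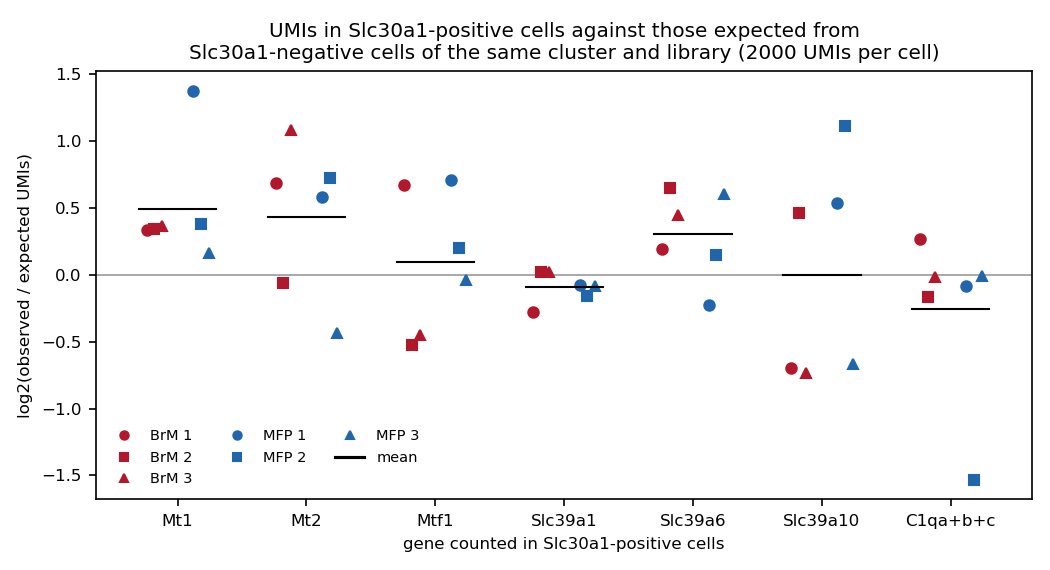
Log2 ratio of observed to expected UMIs of 6 zinc genes and the C1q genes in cells with a Slc30a1 UMI, 1 point per library (BrM red, MFP blue) with a bar for the mean, over all immune clusters at 2000 UMIs per cell; the line at 0 marks no difference. Mt1 lies above 0 in 6 of 6 libraries, from 0.16 to 1.37, and Mt2 in 4 of 6.

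Genes of other pathways known to act on metallothioneins were read beside them in the same fits. Of 10 genes answering to NRF2, the sensor of oxidative stress, 85 pairs were tested and 1 was called, in macrophage-like cells, where 3.75% of all genes were called: Gclm, the regulatory subunit of glutathione synthesis, was at 25.5, 36.1 and 33.2 CPM in BrM and at 20.1, 16.3 and 23.2 CPM in MFP in macrophage-like cells, and rose by 0.70 on the log2 scale (SE 0.18, edgeR adjusted p = 0.0387). Of the glucocorticoid list 106 pairs were tested and 2 fell, both in macrophage-like cells with their 3.75% of genes called. Fkbp5, a chaperone of the glucocorticoid receptor, was at 19.1, 10.98 and 12.3 CPM in BrM and at 20.1, 0 and 42.4 CPM in MFP (log2 fold change -1.58, SE 0.23, edgeR adjusted p = 0.000533). Klf9, a transcription factor, was at 9.56, 5.90 and 7.05 CPM in BrM and at 15.1, 24.5 and 17.9 CPM in MFP (-1.33, SE 0.22, edgeR adjusted p = 0.00137). In the hypoxia list 79 pairs were tested, and 2 fell, again in macrophage-like cells. Ankrd37, an ankyrin-repeat protein induced by low oxygen, was at 15.9, 11.7 and 13.9 CPM in BrM and at 25.2, 32.6 and 27.0 CPM in MFP (-0.95, SE 0.18, edgeR adjusted p = 0.00427). Pdk1, a kinase that holds back pyruvate oxidation, was at 22.3, 11.5 and 12.9 CPM in BrM and at 27.7, 24.5 and 24.95 CPM in MFP (-0.91, SE 0.19, edgeR adjusted p = 0.00828). Without BrM 2, BrM 3 or MFP 3 none of these 5 calls was made, the gene failing the filter in 3 of them, and DESeq2 made none of them. In that class both metallothioneins overlapped between the sites. The median fold change there was -0.39 over the glucocorticoid list, -0.52 over the hypoxia list and 0.07 over the NRF2 list. Over all genes it was -0.04. In the other classes the NRF2 median was also positive, from 0.09 in cluster 6 to 0.53 in Treg-like cells. The medians of the glucocorticoid and hypoxia lists took both signs over the classes. Whether these pathways had a part in the metallothionein levels was not tested.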

How the data were processed

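Gene-by-barcode tables of raw UMI counts, deposited by the authors for each of 6 libraries, were the start. Per the submitters' processing notes they came from Cell Ranger 4.0 with mm10; the annotation release is not given in the sources used here. No header or label states a removal of free RNA.

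Cells with at least 500 UMIs, 200 genes and at most 10% mitochondrial counts were kept. The cells with the highest 7% of Scrublet scores per library were removed, because the automatic threshold marked under 0.5% in most libraries. Cells were clustered with scanpy 1.11.5 and leidenalg 0.10.2 (2000 variable genes without the zinc list, 30 components, 15 neighbours, resolution 1.5, seed 1) and the 30 clusters were named from marker lists, with thresholds set after the clusters were seen; rebuilt names may differ from the study's own.

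Counts were summed per library and class (at least 20 cells), and 12 classes were compared in R 4.3.3 with edgeR 4.0.16 (TMM, filterByExpr, quasi-likelihood test, Benjamini-Hochberg over all genes of the class), each class fitted apart; DESeq2 1.42.0 was an alternative. The other alternatives were no filter, a replicate block, library kind as a term or each kind alone, each library left out, a gate on marker UMIs per cell, no doublet removal and at most 5% mitochondrial counts. Log2 ratios per cell used a pseudocount of 0.5 UMIs and cells thinned to 2000 UMIs, leaving out shallower cells. Correlations used log2(CPM + 5) of sums with at least 50 cells and genes of at least 20 CPM. Depth limits low values: limits given for a count of 0 cover counting error only. The scripts were tested on simulated data.

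The genes and lists were chosen with earlier results of these data known. The text names the 7 chosen genes in every class; from the other zinc genes and other Mtf1 targets, those called by edgeR and, since none was, the ends of the range of the zinc genes and every Mtf1 target that passed the filter, chosen after their values were seen; from the comparison lists those called; and the 5 genes most like Slc30a1 and Mt1, of which 1 is not reported here.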

Additional observations from a re-analysis of the deposited data

How the results depend on the processing

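Among the 7 genes Slc30a1 kept its direction most steadily, and the number of pairs of gene and class called was the least steady value. The difference between the sites chose Slc30a1, and all settings reuse the same libraries, so its steady sign is a description and no test. The share of all genes that kept their sign was not computed. The counts of calls below are raw and stand without the share of pairs called over all genes in each setting. Each kind alone holds a single library of 1 site, so its calls lean on that library. Whether the 7 genes were called more often than other genes in a setting was not tested, and nothing is read from these counts. Over the 12 classes 489 genes were called, 767 by DESeq2, 1808 with library kind as a term, 7545 and 2999 in the higher and lower kind alone, 2933 without a filter on low counts, and 31 to 4932 with 1 library left out. Of the pairs of the 7 genes and a class 3 were called, 12 with library kind as a term, 18 and 13 in the higher and lower kind alone, 0 with the marker gate, 20 without a filter and 0 to 14 with 1 library left out. For other zinc genes (0 called) the count was 2 in the higher kind alone, 2 without a filter and 0 to 1 with 1 library left out. For other Mtf1 targets (0 called) it was 1 by DESeq2, 5 and 2 in the higher and lower kind alone, 2 with the marker gate, 2 without a filter and 0 to 3 with 1 library left out. Slc30a1 was higher in 10 to 11 classes with 1 library left out, since a class fell below the filter. Of the fold changes past the threshold 1 changed sign, that of Mt2 in macrophage-like cells in the lower kind alone (0.48). Counting all fold changes, a sign change in at least 1 setting was found in 0 of 11 classes for Slc30a1, 4 of 11 for Mt1 (CD8 T-like, monocyte-like, cDC2-like and macrophage-like), 3 of 7 for Mt2, 10 of 12 for Mtf1, 6 of 11 for Slc39a1, 3 of 12 for Slc39a6 and 4 of 10 for Slc39a10. The cause was not tested.

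With the replicate number as a block 459 genes and 3 pairs were called, each of these pairs with Slc30a1 (NK-like 1.04, cDC2-like 1.66, cluster 3 1.38). In NK-like cells the deviations of libraries with the same number correlated at 0.45, -0.20 and 0.26 for replicates 1, 2 and 3. Replicate 2 joins libraries of different kinds, and replicates 1 and 3 each join libraries of the same kind. Whether the numbers pair the libraries therefore cannot be told apart from the library kind.

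In the log2 ratio per cell, thinning to 1000 UMIs gave 0.081 for Mt2 in CD8 T-like, -0.31 for Mt1 in NK-like, -0.13 and -0.38 for Mt1 and Mt2 in macrophage-like and -0.51 for Mt1 in monocyte-like cells; thinning to 4000 UMIs gave 0.28 for Mt2 in CD8 T-like cells, 0.25 and -0.36 for Mt1 and Mt2 in cluster 3, 0.019 and -0.48 in macrophage-like cells and -1.05 for Mt2 in monocyte-like cells. With at least 10 positive cells Mt1 gave 0.88 in CD8 T-like and -0.68 in monocyte-like cells. Over all immune clusters Mt2 reversed to -0.17 at both depths. The r of Slc30a1 with Mt1 was 0.35 and -0.12, and with Mt2 0.041 and -0.10, with class and site, and with class, site and kind, taken out. The values with kind taken out leave out the libraries alone in their site and kind, so they cannot be compared with the others. Depth limits the per-cell counts, since few cells hold a Slc30a1 UMI.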
